A study of Mus musculus with 12 samples.

Results

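The 10 genes described here encode the parts of the mouse major histocompatibility complex (MHC) class II pathway: the chains H2-Aa, H2-Ab1 and H2-Eb1, the loading factors H2-DMa, H2-DMb1 and H2-DMb2, the modulators H2-Oa and H2-Ob, the invariant chain Cd74 and the coactivator Ciita. They were followed across sorted T cells cultured with or without azacitidine (AzaC), a cytidine analogue that is built into DNA and traps DNA methyltransferases. Each gene was read from the array row that names it and no other gene, and the brightest such row was used where a gene had more than 1. This gave 9 of the 10 genes among 22180 genes measured. The only row of Cd74 also carries the name of a microRNA, Mir5107, so Cd74 was not analysed here.

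The data are 12 Affymetrix arrays of total RNA, with 3 samples for each of 4 groups: CD4 cells given PBS, CD4 cells given AzaC, nTregs given PBS and nTregs given AzaC. The nTregs (natural regulatory T cells) were isolated from spleens of B6.Foxp3GFP mice, whose Foxp3-expressing cells are green, and were mixed at 1 to 10 with T cells depleted of Tregs from B6.Foxp3GFP x B6.CAGDSRED mice, whose cells are also red. Activation by beads coated with antibodies to CD3 and CD28, in medium with 500 U/mL human IL-2, lasted 2 days in all cultures, which then received 1 µM AzaC or PBS for a further 2 days. The sort gates were CD4+ DsRed- Foxp3GFP+ for nTregs and CD4+ DsRed+ Foxp3GFP- for the effector cells, called CD4 cells below. The strain label of the cross with the DsRed transgene stands on all 12 samples, nTregs included, although the culture protocol draws nTregs from mice without it. Both populations were sorted from co-cultures and, per the protocol, came from different mice. The labels give no age. Nothing in them says that the samples within a group are separate animals or cultures, and the p-values then reflect only sample-to-sample spread, which may be technical.

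Class II molecules are pairs of an alpha and a beta chain that present peptides from endosomes to CD4 T cells. The invariant chain occupies the new pair's groove and brings it to endosomes, where proteases cut it down to a short peptide. H2-DM removes that peptide and lets others bind, and H2-O restrains H2-DM. Transcription of the class II chains and of H2-DM depends largely on Ciita, a coactivator with no DNA binding of its own that is recruited by the RFX complex, CREB and NF-Y to the conserved X and Y boxes of class II promoters. B cells, dendritic cells and macrophages are the main producers, and mouse T cells are known for making little class II of their own. Mice of the B6 strain carry a defective H2-Ea gene, so their H2-Eb1 chain lacks its usual partner.

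All values are log2 signals, and a difference of 1 is a doubling. Array medians lay between 6.67 and 6.80. The nTreg PBS sample 1 and the CD4 PBS sample 3 stood apart, with a mean correlation to the other arrays of 0.961 and 0.970 against 0.977 to 0.982 for the remaining arrays. Foxp3, the defining Treg factor and part of the sort gate, read 11.98 to 12.52 in nTregs with PBS and 7.79 to 8.26 in CD4 cells with PBS, and 12.68 to 12.72 and 9.39 to 9.85 with AzaC. Differences were tested with limma, and a gene was called when its p, adjusted by Benjamini-Hochberg over all 22180 genes, was under 0.05. In bulk RNA of this kind, fewer cells that express a gene and less RNA per cell cannot be told apart.

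**Figure D1:**
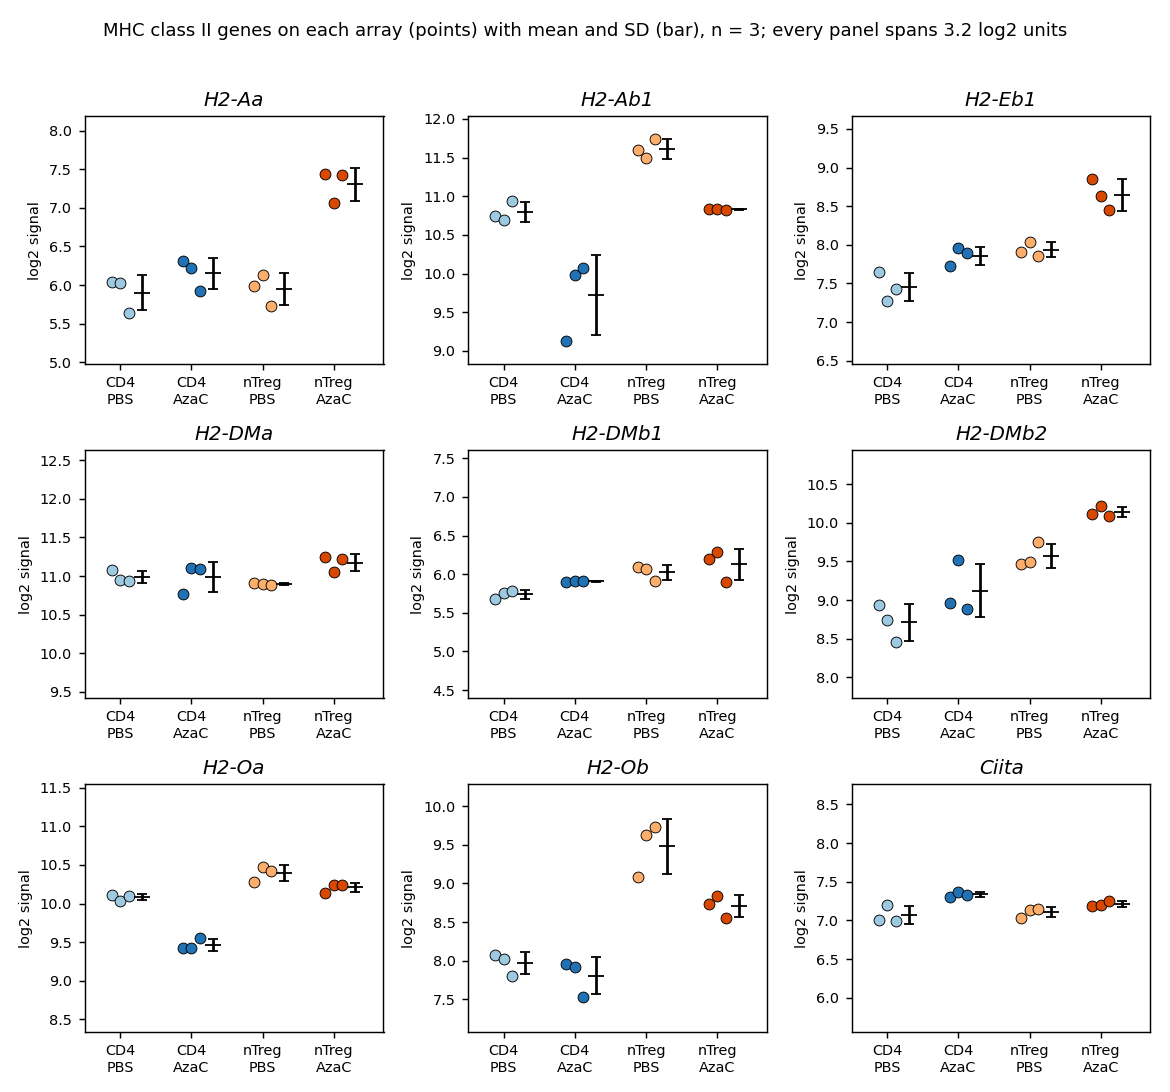
Log2 signal of the 9 measured class II genes (y axis, 3.2 log2 units in every panel) on each of 12 arrays in 4 groups (x axis), with the mean and SD of 3 arrays as a bar. H2-Aa stands at 7.06 to 7.44 in nTregs with AzaC and at 5.64 to 6.31 in the other 3 groups, while H2-Ab1 is lower with AzaC than with PBS in each population.

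The 3 classical chains did not move together under AzaC. H2-Aa and H2-Eb1 rose in nTregs, H2-Ab1 fell in CD4 cells, and H2-Ab1 was also lower in nTregs at an adjusted p just past the threshold. H2-Aa encodes the alpha chain and H2-Ab1 the beta chain of I-A, the class II molecule that B6 mice display, and H2-Eb1 encodes the beta chain of I-E.

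H2-Aa read 5.98, 6.14 and 5.73 in the nTreg samples with PBS and 7.44, 7.06 and 7.42 in those with AzaC. In CD4 cells it read 6.04, 6.03 and 5.64 with PBS and 6.31, 6.22 and 5.93 with AzaC. All 3 nTreg samples with AzaC stood above the other 9 samples, and those 9 overlapped. The rise in nTregs was 1.36 (SE 0.16, 95% interval 1.02 to 1.69), a 2.56-fold change with a limma adjusted p of 0.000488. The change in CD4 cells was 0.25 (95% interval -0.09 to 0.58, limma adjusted p = 0.468). The effect in nTregs exceeded that in CD4 cells by 1.11 (SE 0.22), which missed the threshold over all genes (limma adjusted p = 0.0666). It passed after centring each array on its median (1.24, adjusted p = 0.0278), after a repeated quantile normalization (1.20, adjusted p = 0.0370), with array weights (1.26, adjusted p = 0.00495) and without both arrays that stood apart (1.26, adjusted p = 0.0401). The table holds no detection calls, so whether the H2-Aa signal near 6 in the other 3 groups was above background was not determined.

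H2-Eb1 read 7.91, 8.04 and 7.86 in nTregs with PBS and 8.86, 8.64 and 8.45 with AzaC. The CD4 samples read 7.64, 7.28 and 7.43 with PBS and 7.72, 7.96 and 7.89 with AzaC. AzaC samples stood above PBS samples in each population without overlap. The rise of 0.71 in nTregs (SE 0.13, 1.64-fold) was called at a limma adjusted p of 0.0104, and the difference of 0.41 in CD4 cells was not (limma adjusted p = 0.145). The 2 effects differed by 0.31 (95% interval -0.08 to 0.69, limma adjusted p = 0.382). Without nTreg AzaC sample 1 the rise in nTregs was 0.61 at an adjusted p of 0.0603, and with only the nTreg groups in the fit its adjusted p was 0.0637.

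H2-Ab1 read 11.60, 11.49 and 11.74 in nTregs with PBS and 10.83, 10.84 and 10.82 with AzaC. In CD4 cells it read 10.75, 10.70 and 10.94 with PBS and 9.12, 9.98 and 10.07 with AzaC. The groups with AzaC lay below those with PBS in each population, and CD4 AzaC sample 1 was the lowest of all 12 samples. H2-Ab1 fell by 1.07 in CD4 cells on the log2 scale (SE 0.19, 2.10-fold lower, limma adjusted p = 0.0101), and that call was lost without CD4 PBS sample 3 (adjusted p = 0.0528). The difference in nTregs was -0.78 (SE 0.19, 95% interval -1.19 to -0.37) at a limma adjusted p of 0.0508, and it was called in 8 of the 23 alternatives, among them the fit without CD4 AzaC sample 1 (adjusted p = 0.00238). The 2 effects differed by 0.29 (95% interval -0.29 to 0.86, limma adjusted p = 0.571). H2-Aa and H2-Ab1, whose products pair with each other, thus had differences of opposite sign in nTregs.

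Promoter sequence is shown for the members whose promoters hold an X core followed by a Y core, in H2-Aa only in a shorter form of the X core. AzaC differences of both signs occurred among these members. The RefSeq promoter table (GRCm38.p6, 250 bases before to 50 after each start) covers 7 of the 10 genes: H2-Oa, H2-DMa, H2-DMb2, H2-DMb1, H2-Ob, H2-Aa and H2-Eb1. Each stretch below runs 5′ to 3′ on the gene's own strand on chromosome 17. The capitals mark the X core (AGCAAC, or its shorter form GCAAC in H2-Aa) and, downstream of it, the Y core ATTGG.
H2-Aa, chr17:34287847-34287936, minus strand: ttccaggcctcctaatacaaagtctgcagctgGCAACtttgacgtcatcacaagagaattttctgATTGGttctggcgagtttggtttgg
H2-Eb1, chr17:34305743-34305832, plus strand: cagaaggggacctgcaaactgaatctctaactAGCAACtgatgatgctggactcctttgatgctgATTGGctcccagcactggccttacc
H2-Oa, chr17:34092271-34092360, plus strand: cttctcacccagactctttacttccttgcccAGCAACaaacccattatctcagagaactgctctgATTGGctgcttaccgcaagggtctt
H2-Ob, chr17:34238783-34238872, plus strand: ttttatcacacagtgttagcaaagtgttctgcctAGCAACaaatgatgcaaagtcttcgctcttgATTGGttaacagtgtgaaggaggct

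In these 4 stretches the gap between the cores was 28 bases in H2-Aa, 27 in H2-Eb1, 28 in H2-Oa and 25 in H2-Ob. The Y core began 48, 59, 43 and 57 bases before the annotated start, in that order. H2-Aa and H2-Eb1 were the members that rose in nTregs with AzaC, while H2-Ob fell in nTregs and H2-Oa fell in CD4 cells. On either strand, ATTGG occurs in 37.4% of the 32851 promoters of the table and in all 7 covered members, and AGCAAC occurs in 14.8% of promoters and in H2-Oa, H2-Ob and H2-Eb1. The pair AGCAAC and ATTGG on 1 strand, 10 to 40 bases apart, occurs in 0.524% of promoters and in the same 3 members. With the shorter X core GCAAC, which overlaps AGCAAC and was added after seeing the sequences, the pair occurs in 1.43% of promoters and in H2-Aa as well. These matches describe letters in a window and say nothing of binding.

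The H2-DM genes encode the peptide exchange factor of the pathway, with H2-DMa as its alpha chain and H2-DMb1 and H2-DMb2 as alternative beta chains. None of the 3 was called for AzaC in either population, and H2-DMb2 was higher in nTregs than in CD4 cells. The promoters of the beta chain genes are shown because they are near copies of each other. They hold the Y core, in capitals, and no exact AGCAAC or GCAAC. Only exact letters were searched, so a variant X core would be missed. Upstream of the Y core, H2-DMb1 reads agtaactgatgatgct and H2-DMb2 reads attaaccgatgatgct, where H2-Eb1 reads AGCAACtgatgatgct. Whether these letters act as an X core was not tested.
H2-DMb2, chr17:34145094-34145183, plus strand: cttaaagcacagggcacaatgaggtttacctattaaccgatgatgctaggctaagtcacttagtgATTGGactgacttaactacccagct
H2-DMb1, chr17:34153065-34153154, plus strand: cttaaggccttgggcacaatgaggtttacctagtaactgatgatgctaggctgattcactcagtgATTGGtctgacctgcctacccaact

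These stretches share 76 of 90 bases (84.4%), whereas the other pairs among the 6 stretches share 21 to 36 of 90. The promoter letters do not bear on the array rows, which read transcripts. As background, the transcripts of H2-DMb1 and H2-DMb2 are also closely alike, and whether signal of one gene reached the other's row was not tested. H2-DMb2 read 9.47, 9.49 and 9.75 in nTregs with PBS and 10.11, 10.21 and 10.09 with AzaC. The CD4 samples read 8.93, 8.74 and 8.46 with PBS and 8.97, 9.52 and 8.88 with AzaC. The nTreg groups did not overlap each other, and each stood above the CD4 cells given the same treatment, while CD4 AzaC sample 2 came within the range of nTregs with PBS. The difference between nTregs and CD4 cells was 0.86 with PBS (SE 0.16, limma adjusted p = 0.00489) and 1.02 with AzaC (limma adjusted p = 0.00135). The AzaC difference was 0.57 in nTregs (limma adjusted p = 0.0979) and 0.41 in CD4 cells (limma adjusted p = 0.252).

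H2-DMb1 lay between 5.67 and 6.28 on all 12 arrays, and its AzaC differences were 0.10 in nTregs and 0.17 in CD4 cells, neither called (limma adjusted p = 0.650 and 0.488). Whether this signal was above background was not determined. H2-DMa read 10.91, 10.90 and 10.89 in nTregs with PBS and 11.25, 11.05 and 11.22 with AzaC. In CD4 cells it read 11.08, 10.95 and 10.93 with PBS and 10.77, 11.10 and 11.09 with AzaC. The nTreg groups did not overlap, but the difference of 0.27 was not called (95% interval 0.04 to 0.51, limma adjusted p = 0.232). The CD4 groups overlapped, with a difference of 0.0019 (95% interval -0.24 to 0.24).

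H2-Oa and H2-Ob encode the chains of H2-O, the inhibitor of H2-DM, and each was lower with AzaC in 1 population. H2-Ob read 9.08, 9.62 and 9.74 in nTregs with PBS and 8.74, 8.84 and 8.55 with AzaC. Among CD4 cells the values were 8.08, 8.02 and 7.81 with PBS and 7.96, 7.92 and 7.53 with AzaC. Every nTreg sample stood above every CD4 sample, and the nTreg groups did not overlap each other. Under PBS the excess in nTregs was 1.51 (SE 0.17, 2.85-fold, limma adjusted p = 6.45e-05), the highest population difference under PBS among the 9 genes, and with AzaC it was 0.90 (limma adjusted p = 0.0041). H2-Ob fell by 0.77 in nTregs on the log2 scale (SE 0.17, 1.71-fold lower, limma adjusted p = 0.0327), against a difference of -0.16 in CD4 cells (limma adjusted p = 0.670). The fall in nTregs was not called without nTreg PBS sample 2 (adjusted p = 0.0821), nTreg PBS sample 3 (0.0838), or nTreg AzaC sample 1 (0.0947), sample 2 (0.0740) or sample 3 (0.144), nor with only the nTreg groups in the fit (0.128), and it was called in 15 of the 23 alternatives.

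H2-Oa read 10.11, 10.04 and 10.10 in CD4 cells with PBS and 9.42, 9.42 and 9.56 with AzaC. In nTregs it read 10.28, 10.48 and 10.42 with PBS and 10.14, 10.25 and 10.24 with AzaC. The CD4 samples with AzaC lay below all the others. H2-Oa fell by 0.62 in CD4 cells on the log2 scale (SE 0.10, 1.53-fold lower, limma adjusted p = 0.00401), and this was called in all 23 alternatives. The difference in nTregs was -0.18 (95% interval -0.39 to 0.02, limma adjusted p = 0.344). The AzaC effects of the 2 populations differed by 0.43 for H2-Oa (limma adjusted p = 0.192) and by -0.61 for H2-Ob (limma adjusted p = 0.236), so a difference between populations was not called for either gene. H2-Oa was 0.74 higher in nTregs than in CD4 cells with AzaC (limma adjusted p = 0.000215), and the difference of 0.31 under PBS was not called (limma adjusted p = 0.0646).

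Ciita, the coactivator of class II promoters, had the narrowest range of the 9 genes over the 12 arrays, from 6.99 to 7.37. It read 7.03, 7.14 and 7.14 in nTregs with PBS and 7.19, 7.20 and 7.25 with AzaC. In CD4 cells it read 7.001, 7.20 and 6.99 with PBS and 7.31, 7.37 and 7.33 with AzaC. The AzaC samples stood above the PBS samples in each population. The differences of 0.11 in nTregs (95% interval -0.09 to 0.31, limma adjusted p = 0.569) and 0.27 in CD4 cells (95% interval 0.07 to 0.48, limma adjusted p = 0.187) were not called. Its difference between nTregs and CD4 cells was 0.04 with PBS and -0.13 with AzaC, neither called (limma adjusted p = 0.844 and 0.483).

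Across the pathway, AzaC changed 3 of the 9 genes in nTregs: H2-Aa and H2-Eb1 rose and H2-Ob fell. Over all genes 2.02% were called in this comparison, 1.42% higher and 0.6% lower. The AzaC and PBS samples of nTregs did not overlap for 8 of the 9 genes, 5 higher and 3 lower with AzaC, where 24.5% of all genes did not overlap, 11% higher and 13.5% lower. The median difference of the 9 genes was 0.11, and that of all genes -0.04. In CD4 cells 2 of the 9 genes fell, H2-Oa and H2-Ab1, and none was called higher; over all genes 1.76% were called, 0.83% higher and 0.933% lower. The CD4 groups did not overlap for 5 of the 9 genes, 3 higher and 2 lower with AzaC, where 23.6% of all genes did not, 11.4% higher and 12.2% lower. The median difference in CD4 cells was 0.17, against 0.01 for all genes. The test of the difference between the effects in nTregs and in CD4 cells called 0 of the 9 genes in limma, with 3 at an unadjusted p under 0.05 (H2-Aa, H2-Oa and H2-Ob), a level that 17.5% of all genes reached. Over all genes it called 0.203%, 0.144% higher and 0.0586% lower.

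**Figure D2:**
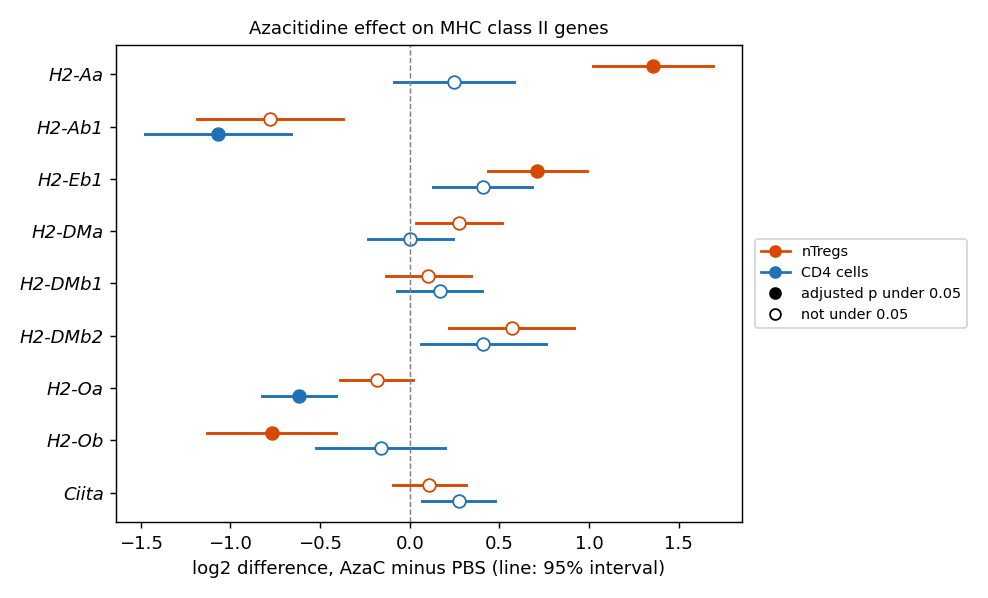
Log2 difference between AzaC and PBS (x axis) with its 95% interval for each class II gene (y axis), in nTregs and in CD4 cells; filled points have an adjusted p under 0.05. H2-Aa and H2-Eb1 lie to the right of 0 and H2-Ob to the left in nTregs, while H2-Ab1 and H2-Oa are the filled points of CD4 cells, at -1.07 and -0.62.

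Between the populations, the class II genes that were called were all higher in nTregs. With PBS these were H2-Ob, H2-DMb2, H2-Ab1 and H2-Eb1, 4 of 9, where 8.01% of all genes were called, 3.9% higher and 4.12% lower in nTregs. With AzaC they were H2-Oa, H2-Aa, H2-DMb2, H2-Eb1, H2-Ab1 and H2-Ob, 6 of 9, where 6.75% of all genes were called, 4.57% higher and 2.19% lower. The median difference of the 9 genes was 0.31 with PBS and 0.79 with AzaC, and that of all genes 0.03 and -0.04. The groups did not overlap for 7 of the 9 genes with either treatment, 6 higher and 1 lower in nTregs (H2-DMa with PBS, Ciita with AzaC), where 26.7% of all genes did not overlap with PBS (13.5% higher, 13.2% lower) and 32.3% with AzaC (15.1% higher, 17.2% lower). The 6 calls with AzaC held in all 23 alternatives. With PBS, the H2-Ab1 excess of 0.82 (limma adjusted p = 0.0168) was not called without CD4 PBS sample 1 (adjusted p = 0.0567) or sample 2 (0.0644), nor with every row of the array in the fit (0.0552). The H2-Eb1 excess of 0.48 with PBS (limma adjusted p = 0.0338) was not called without CD4 PBS sample 2 (0.127) or sample 3 (0.0923), CD4 AzaC sample 3 (0.0503) or nTreg PBS sample 2 (0.0914), nor without both arrays that stood apart (0.0932). It was also lost with each array centred on its median (0.0687), with only the groups compared (0.0997) and with every row (0.0765). It was called in 15 of the 23 alternatives. The comparisons share samples with each other, so their calls are not independent.

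**Figure D3:**
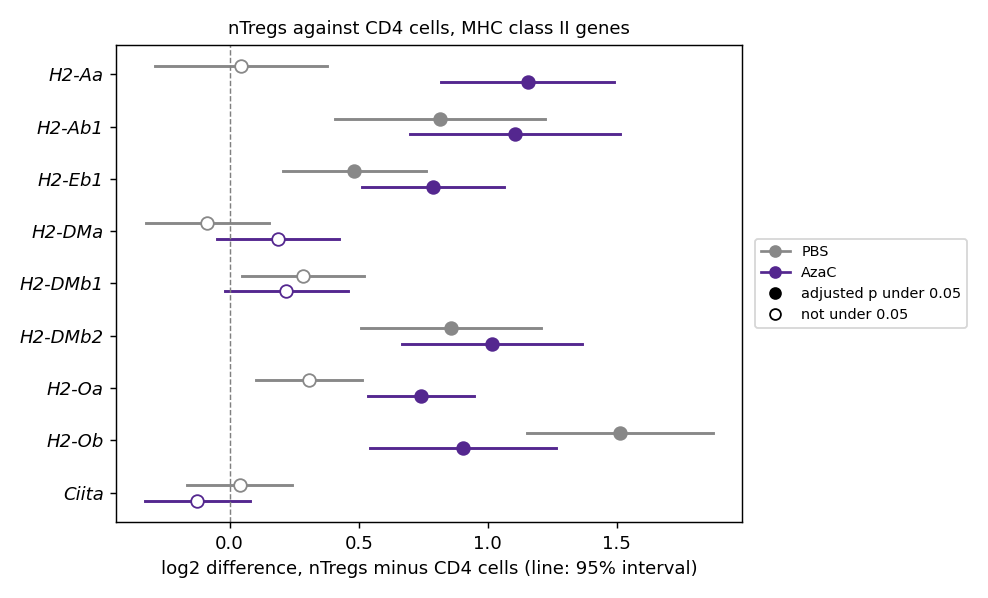
Log2 difference between nTregs and CD4 cells (x axis) with its 95% interval for each class II gene (y axis), with PBS and with AzaC; filled points have an adjusted p under 0.05. H2-Aa moves from 0.04 with PBS to 1.15 with AzaC, H2-Ob from 1.51 to 0.90, and Ciita and H2-DMa stay near 0.

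The order of the group means fell into several patterns. H2-Ab1, H2-Oa and H2-Ob followed 1 order, nTregs with PBS, nTregs with AzaC, CD4 cells with PBS and CD4 cells with AzaC. In that order the 2 nTreg groups differed past the threshold for H2-Ob but not for H2-Ab1 and H2-Oa, and the 2 CD4 groups did so for H2-Ab1 and H2-Oa but not for H2-Ob. The middle step, from nTregs with AzaC to CD4 cells with PBS, was not tested. For H2-Ab1 its means were 10.83 and 10.79, and the nTreg AzaC samples lay inside the range of the CD4 PBS samples. H2-Eb1, H2-DMb2 and H2-DMb1 shared another order, nTregs with AzaC, nTregs with PBS, CD4 cells with AzaC and CD4 cells with PBS, in which the step between the nTreg groups was called for H2-Eb1 and no other step between AzaC and PBS was called for these 3 genes. Their middle step, from nTregs with PBS to CD4 cells with AzaC, was not tested either, and those groups overlapped for all 3 genes. H2-Aa was highest in nTregs with AzaC, and its other 3 groups did not differ beyond their spread. H2-DMa was also highest in nTregs with AzaC and Ciita in CD4 cells with AzaC, but no comparison of either gene was called.

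Of the other class II chain genes, H2-Eb2 and H2-Ea had rows of their own, at 5.23 to 6.22 on all arrays, and 0 calls in limma in the 5 comparisons, with 0 at an unadjusted p under 0.05. Whether these signals were above background was not determined.

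The class II region on chromosome 17 holds 8 of the 9 measured genes, in the order H2-Oa, H2-DMa, H2-DMb2, H2-DMb1, H2-Ob, H2-Ab1, H2-Aa and H2-Eb1 in the GRCm38.p6 gene table, while Ciita lies on chromosome 16. H2-Aa and H2-Ab1, whose AzaC differences in nTregs had opposite signs, are neighbours in that order. Brd2, a bromodomain protein, and the class I pathway genes Psmb9, Tap1, Psmb8 and Tap2 lie between the members and have rows of their own. None of these 5 genes was called in limma in any of the 5 comparisons. Over all genes 0.203% to 8.01% were called, so 0 of 5 does not tell these genes from others. At an unadjusted p under 0.05 stood 2 of 5 for the populations with PBS (Psmb9 and Tap1), as did 22.99% of all genes. For the difference of the AzaC effects 2 of 5 did (Psmb9 and Tap2), as did 17.5% of all genes. Their AzaC differences were 0.10 to 0.58 in nTregs, with 1 of 5 at an unadjusted p under 0.05 (Tap2, a subunit of the peptide transporter of class I, at 0.58 with adjusted p = 0.130), and -0.24 to 0.01 in CD4 cells, with 0 of 5. Tap2 read 10.00, 10.88 and 10.86 in nTregs with PBS, the low value in sample 1, and 11.16 to 11.17 with AzaC.

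**Figure D4:**
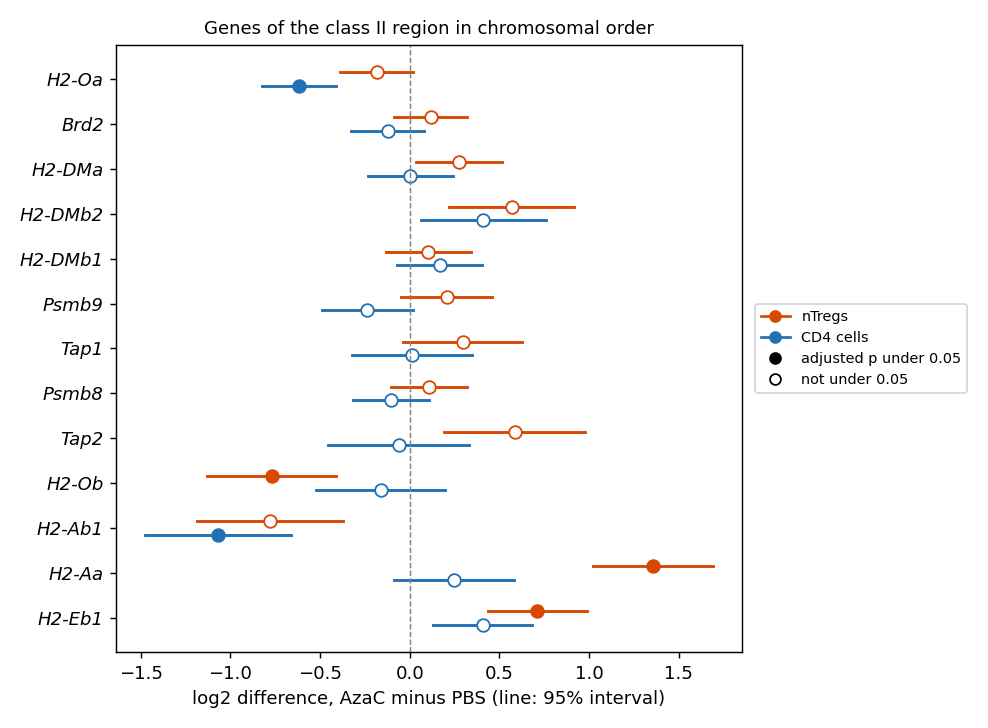
Log2 difference between AzaC and PBS (x axis) with its 95% interval for 13 genes of the class II region in their order on chromosome 17 (y axis, not to scale), in nTregs and CD4 cells; filled points have an adjusted p under 0.05. The filled points belong to H2-Oa, H2-Ob, H2-Ab1, H2-Aa and H2-Eb1, and the 5 genes Brd2, Psmb9, Tap1, Psmb8 and Tap2 between them have open points in both populations.

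Among 4016 genes that spanned at least 1 log2 unit over the 12 arrays, those most like the mean of H2-Aa, H2-Ab1 and H2-Eb1 were Lst1 (Pearson r = 0.974), Csrnp1 (0.971), Tank (0.970), Alkbh6 (0.965) and Rab6b (0.964). The points are 12 arrays that share 4 groups, so these values describe the group pattern and carry no test. Lst1, for example, averaged 8.98 in nTregs with AzaC, 8.46 in nTregs with PBS, 7.73 in CD4 cells with PBS and 7.48 in CD4 cells with AzaC. Because the chains did not move together, likeness to single chains was added after their values were seen. The closest genes to H2-Aa were Stxbp6 (0.951), Scin (0.948), Il23r (0.944), Lacc1 (0.943) and Muc1 (0.942). The closest to H2-Ab1 were Fam162a (0.980), Trappc6a (0.964), Txndc12 (0.959), Ctsl (0.955) and Rom1 (0.954), and Ctsl, cathepsin L, is a protease that trims the invariant chain in thymic epithelium.

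The factors that bind class II promoters did not pass the test for AzaC. Counts of list genes at an unadjusted p under 0.05, here and below, stand beside 16.8% of all genes for AzaC in nTregs, 15.2% for AzaC in CD4 cells, and 22.99% and 20.5% for the populations with PBS and with AzaC. Of the 8 with a row of their own, 0 were called in nTregs in limma (3 at an unadjusted p under 0.05) and 0 in CD4 cells (2 at that level), with a median difference of 0.16 and -0.19. Rfx5, a subunit of the X box complex, read 7.34, 8.42 and 8.42 in nTregs with PBS and 8.60, 8.94 and 8.86 with AzaC. The low value came from nTreg PBS sample 1, and the difference of 0.74 was not called (limma adjusted p = 0.122). In CD4 cells, Nfyb, a subunit of the Y box factor NF-Y, had a difference of -0.48 (limma adjusted p = 0.0695), and Rfxap, another subunit of the X box complex, one of -0.49 (limma adjusted p = 0.106). Under PBS, Creb1 and Nfyc were lower in nTregs than in CD4 cells, by -0.72 and -0.42 (limma adjusted p = 0.0123 and 0.0137), the second lost without CD4 PBS sample 3 (adjusted p = 0.0519). They were 2 of 8, where 4.12% of all genes were called lower. All 8 differences with PBS lay below 0, with a median of -0.29. The mean level of the 8 was 8.86, 9.16 and 9.15 in nTregs with PBS, lowest in sample 1, an array that stood apart. In CD4 cells with PBS it was 9.32, 9.32 and 9.51.

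Interferon gamma is the main inducer of Ciita outside antigen-presenting cells, and 13 genes of its axis were read. Ifng, the cytokine itself, differed by 0.04 in nTregs and 0.34 in CD4 cells with AzaC, and Irf1, a transcription factor that it induces, by 0.0026 and -0.06. None of these 4 differences was called (limma adjusted p = 0.860, 0.146, 0.994 and 0.883). Ifngr2, a chain of the receptor, was the 1 gene of 13 called in nTregs, at 0.60 higher (limma adjusted p = 0.0438), where 1.42% of all genes were called higher. In that comparison 3 of the 13 stood at an unadjusted p under 0.05. The Ifngr2 call was lost on leaving out any of 9 arrays, with a highest adjusted p of 0.203. In CD4 cells 0 of 13 were called in limma, with 3 at an unadjusted p under 0.05. Ifngr1 and Prdm1, a repressor of Ciita in plasma cells, were higher in nTregs than in CD4 cells with PBS (0.79 and 0.89, limma adjusted p = 0.0044 and 0.0130) and with AzaC (0.79 and 1.06, limma adjusted p = 0.0041 for each). Socs1, an inhibitor of cytokine signalling, was 0.45 higher in nTregs with AzaC (limma adjusted p = 0.0274), a call lost on leaving out any of 6 arrays, with a highest adjusted p of 0.102. The Prdm1 call with PBS was lost without CD4 PBS sample 2 (adjusted p = 0.0532) or sample 3 (0.0548). Between the populations, 2 of the 13 were called higher in nTregs with PBS and 3 with AzaC, where 3.9% and 4.57% of all genes were. Of the 13 genes, 8 stood at an unadjusted p under 0.05 with PBS and 3 with AzaC.

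Of the 8 endosomal enzymes that cut the invariant chain and antigens or reduce their disulfide bonds, 0 were called for AzaC in nTregs in limma (4 at an unadjusted p under 0.05, which 16.8% of all genes reached). In CD4 cells Ctsl fell by 0.83 on the log2 scale (limma adjusted p = 0.0388), a call lost on leaving out any of 6 arrays, with a highest adjusted p of 0.168. With AzaC, 4 of the 8 were higher in nTregs than in CD4 cells: Ctss, the main protease of the invariant chain in B cells and dendritic cells, by 0.82, Ctsl by 1.06, Ctsz by 0.67 and Lgmn, an asparagine endopeptidase, by 0.77 (limma adjusted p between 0.0018 and 0.0034), where 4.57% of all genes were called higher. With PBS, Lgmn (0.71, limma adjusted p = 0.0061) and Ctsl (0.66, limma adjusted p = 0.0439) were higher, the second lost on leaving out any of 8 arrays, with a highest adjusted p of 0.152. The 6 genes of class II turnover and trafficking had 0 calls in limma in the 5 comparisons, with 2 at an unadjusted p under 0.05 for AzaC in nTregs and 0 in CD4 cells.

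The class I pathway presents peptides from the cytosol to CD8 T cells. Of its 18 genes read, 3 rose in nTregs with AzaC, where 1.42% of all genes were called higher: Calr and Tapbp, chaperones of class I loading, by 0.91 and 0.76, and Tapbpl, a peptide editor, by 0.54 (limma adjusted p = 0.0035, 0.0444 and 0.0125). All 18 differences lay above 0, with a median of 0.22, against -0.04 for all genes. The mean level of the 18 genes was 10.53, 10.82 and 10.79 in nTregs with PBS and 11.03 to 11.08 with AzaC. The lowest of these came from nTreg PBS sample 1, an array that stood apart. In CD4 cells 0 of 18 were called in limma, 0 at an unadjusted p under 0.05, with a median of 0.01. Between the populations 0 of 18 were called in limma with either treatment, with 4 at an unadjusted p under 0.05 with PBS and 3 with AzaC, where 22.99% and 20.5% of all genes stood at that level. The Tapbpl call was lost without nTreg AzaC sample 1 (adjusted p = 0.0666) or sample 3 (0.0541), and the Tapbp call on leaving out any of 11 arrays, with a highest adjusted p of 0.199.

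Antigen-presenting cells display costimulatory ligands beside class II, and 9 such genes were read. In nTregs AzaC raised Cd86 by 0.99, Icosl by 1.04 and Cd274 by 0.72 (limma adjusted p = 0.0016, 0.0028 and 0.0153), 3 of 9 (2.02% of all genes called), and in CD4 cells it raised Cd80 by 1.497 and Tnfsf4 by 1.45 (limma adjusted p = 9.09e-05 and 0.0026), 2 of 9 (1.76% of all genes called). Of the 9 differences, 1 lay below 0 in nTregs and 2 in CD4 cells. The Cd274 call was lost without nTreg PBS sample 3 (adjusted p = 0.0506), nTreg AzaC sample 1 (0.0721) or sample 2 (0.0845). Between the populations, 5 of the 9 ligands were higher in nTregs with PBS (Cd80, Cd86, Cd274, Tnfsf9 and Tnfsf4, by 0.72 to 2.13), where 3.9% of all genes were called higher, and 5 with AzaC (Cd86, Icosl, Cd274, Tnfsf9 and Cd70, by 0.88 to 1.99), where 4.57% were. Of these, the Tnfsf4 call with PBS was lost on leaving out any of 9 arrays (highest adjusted p = 0.176) and the Cd70 call with AzaC on leaving out any of 8 (highest adjusted p = 0.150). Of the receptors of class II, Cd4 was lower in nTregs than in CD4 cells with PBS, by -0.83 (limma adjusted p = 0.0041), and Lag3 was 0.63 higher with AzaC (limma adjusted p = 0.0493), a call lost on leaving out any of 8 arrays, with a highest adjusted p of 0.137.

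Markers of cells that make class II in quantity were read beside these results. Of 12 B cell markers, 9 stayed below 7 on all 12 arrays, Ms4a1 and Cd79a among them, and 0 were called for AzaC in limma in either population (2 at an unadjusted p under 0.05 in nTregs and 1 in CD4 cells). The level 7 is a chosen cut above the array medians of 6.67 to 6.80, so lying below it does not show absence. H2-Aa itself lay below 7 in all groups but nTregs with AzaC. Their mean level lay between 6.18 and 6.23 in CD4 cells with PBS, 6.17 and 6.35 in CD4 cells with AzaC, 6.21 and 6.34 in nTregs with PBS, and 6.29 and 6.37 in nTregs with AzaC, so the AzaC and PBS groups overlapped in each population. Cd79b, a chain of the B cell receptor, was higher in nTregs than in CD4 cells by 0.80 with PBS and 1.08 with AzaC (limma adjusted p = 0.0069 and 0.000716).

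Of 18 myeloid and dendritic cell markers, 11 stayed below 7 on all arrays, Itgax among them. Csf1r, C1qa, Tyrobp, Itgam, Cst3, Fcer1g and Cd209a did not, and the highest value of the list was 11.79. The mean level of the 18 markers lay between 6.58 and 6.89 over the 12 arrays, with nTreg PBS sample 1 the highest. In nTregs with AzaC, Itgam fell by 0.94 on the log2 scale and Fcer1g rose by 0.62 (limma adjusted p = 0.0335 and 0.0336), calls lost on leaving out any of 7 and any of 5 arrays, with highest adjusted p of 0.141 and 0.124. In CD4 cells 0 of 18 were called in limma, with 2 at an unadjusted p under 0.05. Cd209a and Cst3 were higher in nTregs than in CD4 cells, by 0.87 and 0.77 with PBS and by 0.66 and 0.75 with AzaC (limma adjusted p between 0.0015 and 0.0106). The Cd209a call with AzaC was lost without nTreg AzaC sample 1 (adjusted p = 0.0545) or sample 3 (0.0536). Fcer1g was also higher in nTregs with AzaC, by 0.54 (limma adjusted p = 0.0280), a call lost on leaving out any of 5 arrays, with a highest adjusted p of 0.101.

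The CD8 T cell markers, like H2-Aa, stood highest in nTregs with AzaC. Cd8a read 6.45, 6.73 and 7.39 in nTregs with PBS and 8.32, 8.17 and 8.24 with AzaC, a rise of 1.39 (limma adjusted p = 0.0018), and Cd8b1 rose by 0.72 (limma adjusted p = 0.0213). The Cd8b1 call was lost without nTreg PBS sample 1 (adjusted p = 0.0547) or any nTreg AzaC sample (highest adjusted p = 0.0974). The mean level of Cd8a and Cd8b1 was 9.62 to 9.75 in nTregs with AzaC, above the 8.11 to 8.96 of the other 9 samples. The nTreg gate required CD4, and a separate gate of the same cultures collected CD8 effector cells, which were not analysed here. Among 5 markers of NK and gamma-delta T cells, Eomes rose by 0.96 in nTregs with AzaC (limma adjusted p = 0.0013). There, 4 of the 5 stood at an unadjusted p under 0.05, and 2 of the 5 differences lay below 0. Klrd1 fell by 1.35 in CD4 cells on the log2 scale (limma adjusted p = 0.0016), with 2 of the 5 at that level. Over all genes 1.42% were called higher in nTregs and 0.933% lower in CD4 cells. With PBS, Klrd1 and Eomes were lower in nTregs than in CD4 cells (limma adjusted p = 0.000514 and 0.0021), where 4.12% of all genes were called lower. With AzaC, Klrk1 was 0.80 higher in nTregs (limma adjusted p = 0.0016), where 4.57% were called higher. The part of these other cell types in the class II differences was not tested.

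**Figure D5:**
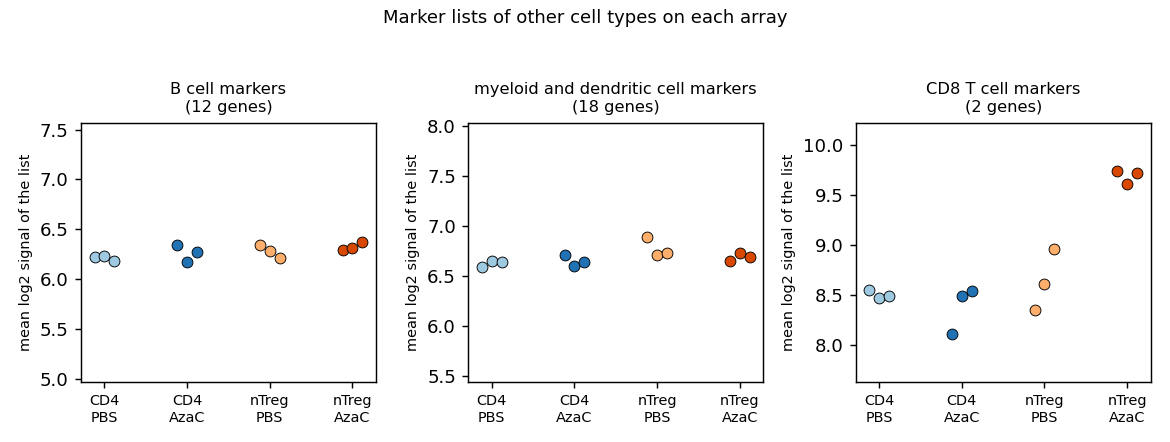
Mean log2 signal (y axis) of B cell markers, myeloid and dendritic cell markers and CD8 T cell markers on each of 12 arrays in 4 groups (x axis). The B cell and myeloid means stay within 6.17 to 6.37 and 6.58 to 6.89, and the CD8 mean is 9.62 to 9.75 in nTregs with AzaC against 8.11 to 8.96 on the other 9 arrays.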

How the data were processed

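The deposited values are log2 signals. The authors made them by RMA, and the submitters' processing notes name Affymetrix Expression Console without a version. RMA corrects background, quantile-normalizes the arrays and summarises each probe set, so levels are relative across arrays. Of 41345 rows, 23521 carry exactly 1 gene symbol in the platform's probe table; keeping the brightest row of each gene left 22180 genes, and H2-Oa's other row, shared with BC051537, was not used. The model had 1 mean for each of 4 groups over 12 arrays (limma 3.58.1, R 4.3.3; 8 residual and 5.95 prior degrees of freedom), with Benjamini-Hochberg adjustment over all genes and calls under 0.05. The number of arrays limits the precision. Motif shares, list counts and correlations are descriptions.

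The members and gene lists were chosen with earlier results of these data known. All members were named; of other lists, the called genes (at most 6 by p), a few fixed genes, and the genes most like the mean of the classical chains, which lacks Cd74. Likeness to single chains, the shorter X core and the fit without 2 arrays were added after seeing the data. The genome build of the array annotation was not stated; promoter coordinates are RefSeq's. The fit was tested on simulated data. The settings varied were dim genes (5 or more on at least 3 arrays), centring, a second quantile normalization, a gene's row mean, fewer groups, replicate blocks, array weights (statmod 1.5.0), a variance trend, every row, and leaving out each array.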

Additional observations from a re-analysis of the deposited data

Results flagged for a closer look

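The AzaC effect differed between nTregs and CD4 cells, by the test of the difference in limma, for 3 genes of the marker and pathway lists, none of them a class II gene. They were 2 of the 9 costimulatory ligands and 1 of the 5 NK and gamma-delta T cell markers. Over all genes 0.203% were called in this comparison. For Cd80, a ligand of CD28, the effect in nTregs minus that in CD4 cells was -1.69 (SE 0.19, limma adjusted p = 0.00195), with a rise of 1.497 in CD4 cells. For Klrd1, a lectin-like receptor chain of NK cells, it was 1.78 (limma adjusted p = 0.0178), and the call was lost without CD4 AzaC sample 1 (adjusted p = 0.0522) or nTreg AzaC sample 1 (0.0539). For Cd86, the other ligand of CD28, it was 1.10 (limma adjusted p = 0.0356), and the call was lost on leaving out any of 9 arrays, with a highest adjusted p of 0.126. Among genes named for their likeness to the classical chains, Rab6b (1.05), Scin (1.42), Il23r (1.85) and Muc1 (1.23) also passed in limma (adjusted p = 0.0363, 0.0198, 0.0198 and 0.0178). They were picked for that pattern on the same arrays, so this is a description. With 3 samples a group, Dixon's test for an outlying value was not applied.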

How the results depend on the processing

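Of 45 member results (9 genes in 5 comparisons), 15 were called, and 10 of these kept their call in all 23 alternatives; of the 30 not called, 21 kept direction and call. The nTreg AzaC count of 3 became 5 with array weights and ranged from 1 to 4 on leaving out each array; the CD4 count of 2 ranged from 1 to 2. The count of 0 for the difference of the AzaC effects became 1 (H2-Aa) with centring, repeated quantile normalization, array weights and without both arrays that stood apart, and stayed at 0 without each single array. The count of 4 between populations with PBS became 2 with every row of the table and ranged from 2 to 5 without each array; with AzaC it was 6 throughout. Over all genes, leaving out each array gave 186 to 447 calls for AzaC in nTregs and 164 to 1044 in CD4 cells, and the other alternatives 125 to 1290 and 186 to 1291. For the difference of effects these were 9 to 69 and 7 to 401, for the populations with PBS 1042 to 1862 and 648 to 2528, and with AzaC 896 to 2467 and 946 to 3500.

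Signs turned for values near 0, none of them called. The H2-DMa difference in CD4 cells was -0.066 with centring, -0.024 without both arrays that stood apart and -0.057 to 0.112 without each array. The H2-DMb1 difference of effects was 0.064 with centring, 0.067 with quantile normalization and -0.142 to 0.050 without each array. For the population difference with PBS, Ciita gave -0.014 with centring and -0.0069 with quantile normalization, and H2-Aa gave -0.0084, -0.00015, -0.104 without both arrays and -0.086 to 0.155 without each array. The H2-Ab1 difference of effects ranged from -0.0100 to 0.462 without each array. Ifng in nTregs ranged from -0.012 to 0.081 without each array. Irf1 in nTregs was -0.083 with quantile normalization, -0.144 with array weights, -0.192 without both arrays and -0.192 to 0.134 without each array, and Irf1 in CD4 cells was 0.0045 without both arrays and -0.096 to 0.0045 without each array. The causes were not tested.

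Whether replicate numbers pair the samples was not settled. Deviations of same-numbered samples correlated at -0.10 to 0.19 (median 0.03), with 3 of 18 pairs over 0.1. Samples with other numbers gave -0.23 to 0.18 (median -0.02), with 3 of 36 over 0.1. With the replicate block the counts were 4, 2, 0, 4 and 6 in the order above, H2-Ab1 in nTregs being called (adjusted p = 0.0421). With no detection calls, signals near 6 have no known distance from background.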
